A study of Homo sapiens and Mus musculus with 10 samples.

Results

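GM12878 is a human B-lymphoblastoid cell line, made by transforming B cells with Epstein-Barr virus (EBV). Its accessible chromatin was compared with that of 3 other human lines by bulk ATAC-seq, an assay in which the Tn5 transposase cuts DNA that is free of tightly packed nucleosomes. The comparison used 8 libraries of the 10 in the series: 2 each of GM12878, of HEK293T (an embryonic kidney line carrying the SV40 large T antigen), of HFF1 (foreskin fibroblasts) and of K562 (an erythroleukaemia line). No group was treated, and the labels give no genotype beyond the line. GM12878 was grown in RPMI medium and HEK293T and HFF1 in DMEM, all with fetal bovine serum, and about the same number of sorted nuclei went into each library by 1 protocol. Each line stands for 1 source of cells, and the labels do not say whether its 2 libraries came from separate cultures, so p-values here measure only the spread between these libraries.

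Each gene was scored as open in a library when any of its start sites had a peak within 1 kb, over 19970 protein-coding genes of GENCODE release 44 on the autosomes and X. A promoter called GM12878-only was open in both GM12878 libraries and in none of the 6 others, which held for 280 genes (1.4% of all tested). The reverse class was closed in both GM12878 libraries and open in all 6 others, and held 265 genes (1.33%). Outside promoter windows, 32952 regions had a peak in both GM12878 libraries and in none of the 6 others, out of 69261 distal regions found in both GM12878 libraries. These classes were set by the peaks themselves, so their sizes are descriptions without a test. The fold given below is the authors' own linear ratio of a peak's summit over the background of its own library. It ranks peaks within a library and is not compared between libraries.

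B cells read antigen through a surface immunoglobulin paired with the CD79A and CD79B chains, whose tyrosine-based motifs pass the signal to SYK, BTK and PLCG2. B-lineage identity rests on factors such as PAX5, EBF1 and PU.1 (the product of SPI1), and B cells present peptides on HLA class II under the control of CIITA. EBV transformation is known for constant NF-kappaB activity and for activation markers and chemokines at the cell surface.

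The GM12878 libraries carried promoter peaks at all 3 of the line's B-cell markers. CD79A (chr19:41877279-41881372, plus strand) had a promoter fold of 5.28 in replicate 1 and 5.92 in replicate 2 of GM12878. CD79B (chr17:63928738-63932336, minus strand) had folds of 8.53 and 8.98, and MS4A1, which encodes CD20 (chr11:60455846-60470752, plus strand), had 10.3 and 10.1. None of the 3 genes had a promoter peak in any of the 6 other libraries. These coordinates are those of the genes in GRCh38. The CD79B peak also lay in the window of a second gene model, ENSG00000285947, and cannot be assigned to one of them. All 15 housekeeping genes listed were open in all 8 libraries, as were 11916 genes in all (59.7%).

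The libraries differed in depth. The GM12878 lists held 101704 and 103715 peaks, against 52438 and 52137 for HEK293T, 127359 and 120344 for HFF1, and 78601 and 71241 for K562. The background recovered from the lists was 1.71 and 1.73 reads per window in GM12878, 0.465 and 0.466 in HEK293T, and between 1.97 and 2.43 in the other lines, so a promoter scored closed in HEK293T may lie under its detection limit. Peak names begin with one prefix in the GM12878 lists and with others in the 6 remaining lists. What the prefix marks is not stated, and it cannot be told apart from the line.

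Examples of the sequences under GM12878-only peaks near B-cell genes are shown next. The 5 distal stretches below each show a summit of the replicate 1 library with the 50 bases on each side of it, from the plus strand of GRCh38. Their nearest start site belongs to a B-cell surface, signalling, factor or HLA class II gene. They were chosen among regions with a motif match, a single region per gene, so as to show different motifs. The matches were therefore part of the choice, and the stretches are not simply the highest peaks. Ranked by fold, the worse rank over the 2 GM12878 libraries ran from 195 for BANK1 to 23880 for BCL11A. Capitals mark every match to the searched motifs.
BANK1, downstream, intron, chr4:101527376-101527476: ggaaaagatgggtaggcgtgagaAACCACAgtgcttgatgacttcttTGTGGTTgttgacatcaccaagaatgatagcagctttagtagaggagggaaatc
FCRL3, downstream, intergenic, chr1:157653294-157653394: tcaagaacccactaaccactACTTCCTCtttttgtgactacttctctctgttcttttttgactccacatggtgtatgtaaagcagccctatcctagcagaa
BCL6, upstream, intergenic, chr3:187935961-187936061: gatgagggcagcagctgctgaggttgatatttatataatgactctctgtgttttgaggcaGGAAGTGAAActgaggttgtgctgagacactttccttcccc
CD40, upstream, intergenic, chr20:46108530-46108630: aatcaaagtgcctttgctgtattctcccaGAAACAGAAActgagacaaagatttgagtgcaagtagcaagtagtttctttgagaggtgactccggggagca
BCL11A, downstream, intergenic, chr2:60446832-60446932: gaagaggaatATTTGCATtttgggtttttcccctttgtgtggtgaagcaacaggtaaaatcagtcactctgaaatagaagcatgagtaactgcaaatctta

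The stretch nearest to BANK1, which encodes a B-cell scaffold protein, held 2 RUNX matches on opposite strands. Its region (chr4:101527086-101527567) had folds of 21.2 and 21.1 in the GM12878 libraries, and lay 107366 bp downstream of the nearest annotated start. Distances in this paragraph run from the region centre to the nearest annotated start of any transcript, which need not be the gene's main start. The FCRL3 stretch held the PU.1 motif and had folds of 18.8 and 19.0, at 23456 bp from the nearest annotated start. The RefSeq start of FCRL3 lay further away, next to chr1:157700770-157701019. The BCL6 stretch held an ETS-IRF composite, 190250 bp upstream of the start, with folds of 15.6 and 15.4. The CD40 stretch held an ISRE-type match 9644 bp upstream, with folds of 13.4 and 14.8. The BCL11A stretch, which was intergenic, held an octamer 6138 bp downstream of the nearest annotated start, with folds of 10.7 and 12.1. A match is a description of the letters, and no binding was measured.

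The 4 promoters below are from RefSeq (GRCh38.p14), each with the 250 bases before the annotated start, 5′ to 3′ on the strand of the gene. They belong to a marker of the line, an inhibitor of B-cell receptor signalling, a chemokine and a lysophospholipid receptor, and both GM12878 libraries had a peak over each. CD79B and MS4A1 had no entry in the RefSeq table, which matched 186 of the 280 GM12878-only genes.
CD79A, chr19:41877029-41877278: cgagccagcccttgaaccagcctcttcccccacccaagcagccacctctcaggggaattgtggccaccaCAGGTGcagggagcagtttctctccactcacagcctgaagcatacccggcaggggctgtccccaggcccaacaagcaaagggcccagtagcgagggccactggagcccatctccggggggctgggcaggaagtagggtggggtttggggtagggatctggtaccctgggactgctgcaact
INPP5D, chr2:233060092-233060341: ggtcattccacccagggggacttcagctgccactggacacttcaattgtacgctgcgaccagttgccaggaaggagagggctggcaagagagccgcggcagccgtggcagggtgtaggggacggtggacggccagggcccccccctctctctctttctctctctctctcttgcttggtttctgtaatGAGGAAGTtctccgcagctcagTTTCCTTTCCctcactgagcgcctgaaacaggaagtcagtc
CCL22, chr16:57358533-57358782: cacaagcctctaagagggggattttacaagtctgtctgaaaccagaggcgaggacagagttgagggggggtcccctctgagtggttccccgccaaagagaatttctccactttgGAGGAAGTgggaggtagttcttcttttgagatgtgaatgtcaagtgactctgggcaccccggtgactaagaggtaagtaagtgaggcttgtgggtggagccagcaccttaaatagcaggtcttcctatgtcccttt
P2RY10, chrX:78945141-78945390: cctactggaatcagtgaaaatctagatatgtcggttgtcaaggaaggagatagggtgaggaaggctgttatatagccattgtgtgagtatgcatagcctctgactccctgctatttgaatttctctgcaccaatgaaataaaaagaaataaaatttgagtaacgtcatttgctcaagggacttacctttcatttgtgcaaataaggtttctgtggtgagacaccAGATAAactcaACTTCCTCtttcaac

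The PU.1 motif (GAGGAAGT, either strand) stood in the INPP5D, CCL22 and P2RY10 promoters. The 4 promoters were picked from a larger set of listed GM12878-only genes, in which no other promoter held this motif. In that set FCRL3, FCRL5, CD86, HLA-DRB1, CCL3, LTA, SLAMF1 and S1PR4 held none of the searched motifs. The PU.1 motif was held by 2.12% of the 15316 RefSeq promoters matched to these genes, by 13 of the 186 GM12878-only promoters matched (6.99%), and by 0.99% of the 202 reverse promoters matched. The CD79A stretch held the E-box CAGGTG, a motif of 17.0% of all promoters and 18.3% of the GM12878-only ones. INPP5D also held an ETS-IRF composite (GGAANNGAAA, either strand), found in 2.21% of all promoters and 3.76% of the GM12878-only ones, and P2RY10 a GATA match (AGATAA), found in 6.76% and 15.59%. RUNX stood in 3.02% of all and 8.06% of GM12878-only promoters, AP-1 in 3.17% and 6.45%, and ISRE in 2.72% and 5.91%. EBF stood in 1.28% of all and 0.54% of GM12878-only promoters, and MEF2 in 2.06% and 1.08%. These lower shares rest on 1 and 2 of the 186 promoters. Around the summits of promoter peaks EBF had the opposite direction, at 1.09% for GM12878-only genes against 0.454% of all GM12878 promoter peaks. MEF2 there stood at 0.364% against 0.539%.

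B-cell surface genes were mostly open in GM12878, and some in no other line. Of the 27 listed, 25 were open in both GM12878 libraries, against 14360 of all 19970 genes. In this list 8 were GM12878-only, against 1.4% of all genes. A further 3 were open in GM12878 and K562 and in none of the other 4 libraries, a pattern of 119 genes in all (0.596%). CD86, a costimulatory ligand for T cells, had a fold of 11.2 in both GM12878 libraries. The Fc receptor-like FCRL5 had 9.29 and 7.85, and FCRL3 had 5.65 and 5.95. TNFRSF13B, the TACI receptor for BAFF and APRIL, had 3.13 and 3.596, and CD27, a memory B-cell marker, had 3.72 and 4.32. These 5 genes lacked a peak in all 6 other libraries, and the last pair carried the lowest folds of the list's GM12878-only members.

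Not every B-cell surface gene set GM12878 apart. Of the 27, 8 were open in all 8 libraries, against 59.7% of all genes. Among them were CD22, CR2, CD72, CD24, TNFRSF13C, CD80 and CD83. CR2, the complement receptor CD21, had folds of 10.3 and 11.6 in GM12878, 10.0 and 12.4 in HEK293T, 4.68 and 5.69 in HFF1, and 7.07 and 7.89 in K562. FCER2, the low-affinity IgE receptor CD23, was open in GM12878 at 6.06 and 5.63 and in K562 at 6.54 and 4.65. TNFRSF17 (BCMA) and CD52 had the same pattern. FCRL1 and CD180 had no promoter peak in any library.

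B-cell receptor signalling genes were mostly open in several lines. Of 23 listed, 22 were open in GM12878, 10 in all 8 libraries, and 2 were GM12878-only. The same counts over all 19970 genes were 14360, 11916 and 280. BLK, a SRC-family kinase of B cells (chr8:11486894-11564599), had folds of 11.5 and 11.8. INPP5D, the SHIP1 phosphatase, had 6.48 and 7.43. DAPP1, an adaptor of the receptor pathway, had 11.4 in both GM12878 libraries, 5.87 and 3.87 in K562, and no peak in HEK293T or HFF1. The kinases BTK, LYN and TEC and the phospholipase PLCG2 were open in all 8 libraries. SYK and VAV1 lacked a peak in HFF1 and had one in HEK293T and K562.

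The highest promoter peak of the signalling list was that of BANK1, with folds of 18.5 and 19.1 in GM12878. It was also open in HFF1 at 8.61 and 9.10 and in 1 K562 library at 4.04, so it fell outside the GM12878-only class, while its strongest distal region did not.

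B-lineage factors mostly had promoters open in all 4 lines, with GM12878-only regions at a distance. All 25 were open in GM12878, 17 in all 8 libraries and 1 was GM12878-only, against 14360, 11916 and 280 of all 19970 genes. The 17 included PAX5, EBF1, POU2AF1, TCF3, BACH2, BCL6 and MEF2C. PAX5 had folds of 6.88 and 6.55 in GM12878, 12.4 and 16.2 in HEK293T, 7.66 and 3.73 in HFF1, and 14.1 and 14.8 in K562. BATF, an AP-1 family partner of IRF4, was the 1 GM12878-only member, at 6.17 and 5.67. SPI1, which encodes PU.1, was open in GM12878 at 7.76 and 7.85 and in K562 at 7.21 and 7.49, and had no peak in HEK293T or HFF1. The median list member was the nearest gene of 9 GM12878-only distal regions, where the median over all genes was 0. EBF1 had 29 such regions of its 47 distal GM12878 regions, MEF2C had 31 of 46, IRF8 had 21 of 33, and FOXO1 had 17 of 21. Near the same genes, the regions found in HFF1 alone numbered 29 for EBF1, 18 for MEF2C, 13 for IRF8 and 19 for FOXO1, and 262 over the list against 258 found in GM12878 alone.

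HLA class II promoters were open in GM12878 for 14 of 16 genes and GM12878-only for 1, against 14360 and 280 of all 19970 genes. HLA-DRB1 (chr6:32577902-32589848), with folds of 12.8 and 13.6, was the 1 GM12878-only member. HLA-DQB1 reached 16.8 and 17.2 in GM12878 and was also called in HEK293T at 10.4 and 8.28. HLA-DMA, HLA-DMB and HLA-DOA were open in all 8 libraries. These genes are near-identical copies that vary between people, so reads can be placed on the wrong copy or lost, and their calls are uncertain. The authors' handling of reads with several matches is not given in the sources used here. CD74, the invariant chain, was open in GM12878, HFF1 and K562, and had no peak in HEK293T.

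**Figure D1:**
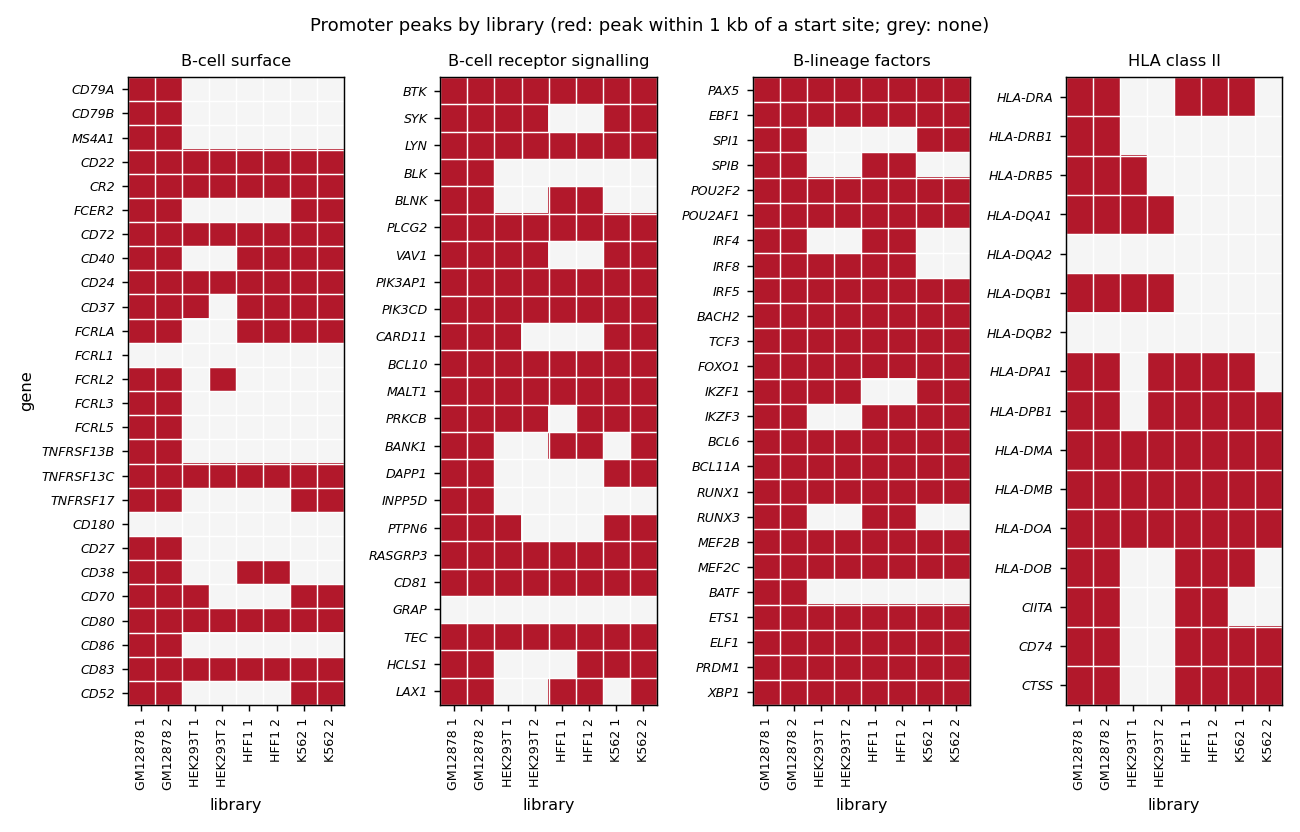
Promoter peaks of members of the B-cell surface (26 of 27 shown), B-cell receptor signalling, B-lineage factor and HLA class II lists (rows, genes) in each of the 8 libraries (columns); red marks a peak within 1 kb of a start site and grey marks none. CD79A, CD79B and MS4A1 are red in the 2 GM12878 columns only, while most B-lineage factors are red in all 8.

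NF-kappaB subunits were open in all 8 libraries, and several chemokine genes in GM12878 alone. Of 26 listed genes, 25 were open in GM12878, 14 in all 8 libraries and 5 were GM12878-only. Over all 19970 genes, the counts were 14360, 11916 and 280 in the same order. NFKB1, NFKB2, REL, RELA, RELB and NFKBIA were open in all 8. CCL22 had folds of 7.59 and 6.82 and CCL17 had 6.01 and 4.78; both encode ligands of CCR4. CCL3 had 8.30 and 8.12, CCL4 had 9.01 and 8.96, and LTA, which encodes lymphotoxin alpha, had 3.30 and 3.23. LTB had no promoter peak in GM12878, and was open in HFF1 at 9.84 and 10.0 and in 1 K562 library at 9.15.

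Leukocyte trafficking and adhesion genes added 5 GM12878-only promoters out of 30, against 1.4% of all genes. P2RY10 had 13.0 in both libraries, SLAMF1 had 9.27 and 8.46, and CD48 had 8.14 and 8.23; SLAMF1 and CD48 are neighbouring members of the SLAM family. CCR6, the receptor for CCL20, had 4.24 and 3.54, and S1PR4, a sphingosine phosphate receptor, had 4.08 and 4.02. SLAMF6 and SLAMF7 were open in GM12878 and K562 and in none of the other 4 libraries. DOCK8, WAS and CORO1A, which act on the actin skeleton of blood cells, were open in all 8.

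Lists of other blood cells were also partly open, while 14360 of all 19970 genes were open in both GM12878 libraries and 1.4% were GM12878-only. Of 20 T and NK genes, 10 were open in GM12878 and 5 were GM12878-only: CD28 at 16.6 and 12.8, CD4 at 5.87 and 6.58, CD3G at 4.92 and 5.19, PRF1 at 5.10 and 4.35, and NKG7 at 4.83 and 4.70. The CD3G value is that of a peak shared with the window of the adjacent CD3D. CD3E, CD2, CD7 and CD8B had no promoter peak in any library, and CD5 had one in 1 GM12878 and 1 HFF1 library. Of 15 myeloid genes, CLEC7A at 11.0 and 10.2 and CSF3R at 5.83 and 6.82 were GM12878-only, and S100A8, S100A9, FCGR1A and FCN1 had no peak in any library. Whether any T, NK or myeloid cell was in the culture was not tested.

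**Figure D2:**
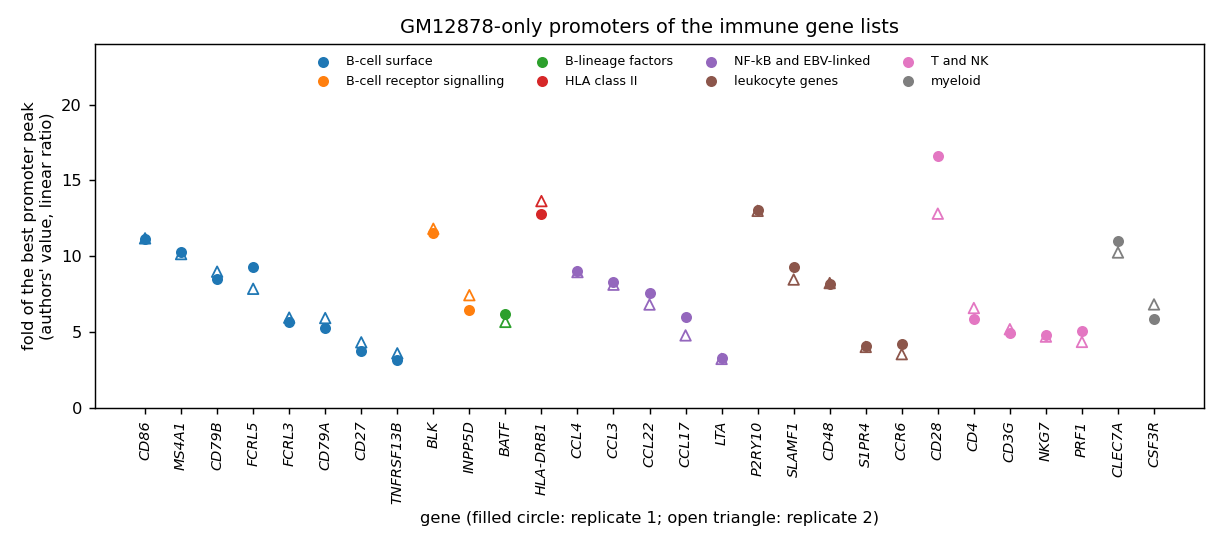
Authors' fold (linear ratio, y axis) of the best promoter peak of each GM12878-only member of the immune lists (x axis), with replicate 1 as filled circles and replicate 2 as open triangles. The replicates lie close together for nearly every gene, CD28 being the widest apart at 16.6 and 12.8.

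Part of the erythroid, fibroblast, kidney and adhesion lists was open in both GM12878 libraries, as were 14360 of all 19970 genes. The erythroid list (6 of 20), the kidney list (8 of 16) and the fibroblast list (12 of 20) lay under that share. The adhesion list (20 of 24) lay above it. Against a share of 1.4% over all genes, which is under 1 gene in a list of this size, none of the 20 erythroid, 20 fibroblast, 16 embryonic kidney, 20 Hippo, 24 adhesion and 24 receptor tyrosine kinase genes was GM12878-only. GATA1, an erythroid factor, had folds of 4.08 and 4.71 in K562, and TAL1 had 5.75 and 5.87; neither had a peak in GM12878, HEK293T or HFF1. Of the 20 fibroblast genes, 12 were open in both GM12878 libraries, and 6 of these, COL1A1, FN1, PDGFRA, VIM, S100A4 and SPARC, in all 8. COL3A1, COL6A3 and FAP were open in HFF1 alone of the 4 lines. Of the 16 kidney genes, 8 were open in both GM12878 libraries; PAX2 and LHX1, kidney developmental factors, were open in HEK293T alone.

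**Figure D3:**
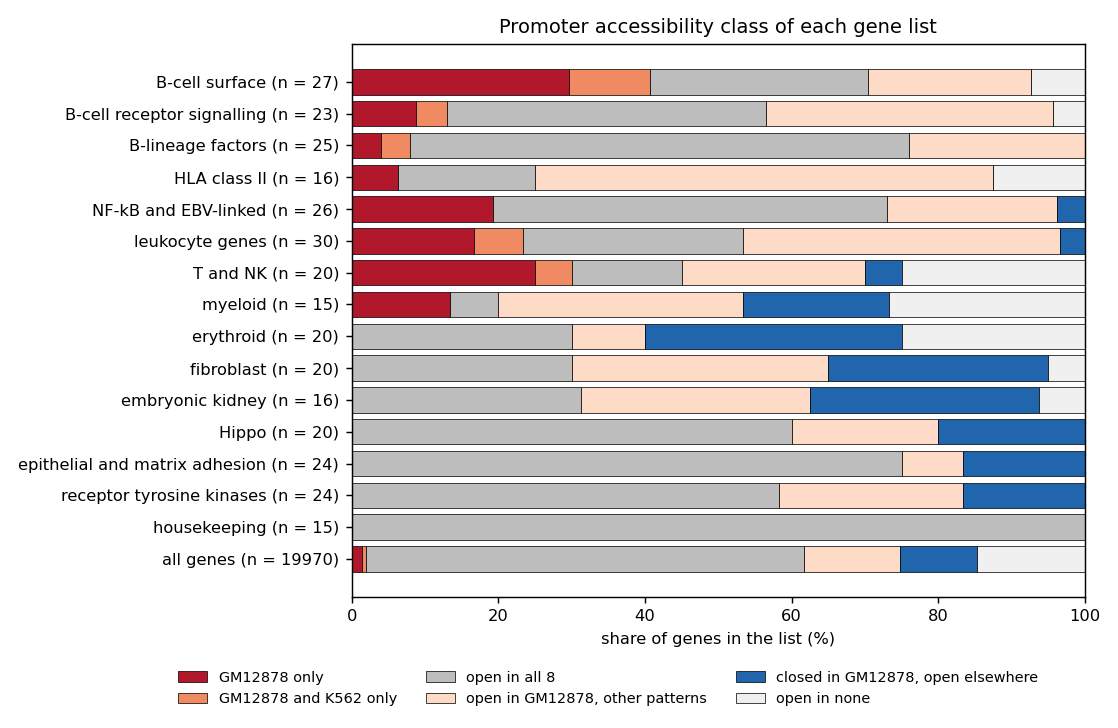
Share of genes (x axis, percent) in each promoter class for the 15 lists and for all 19970 genes (rows, with the number of genes). GM12878-only promoters make up 8 of the 27 B-cell surface genes and none of the erythroid to housekeeping lists, against 1.4% of all genes.

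A group of lymphoid promoters was open in GM12878 and HFF1 and in none of the HEK293T and K562 libraries. This pattern held for 265 genes (1.33%), and among listed genes it took in PTPRC, CXCR5, P2RY8, EVI2B, IRF4, RUNX3, SPIB, CIITA, CD38 and BLNK. PTPRC, which encodes CD45, had folds of 8.36 and 9.89 in GM12878 and 6.70 and 6.53 in HFF1. In both replicate pairs, the best peaks of the 2 lines overlapped for 146 of the 265 genes, and for 5 of the 17 in the lists. For PTPRC, CXCR5, CIITA, SPIB, P2RY8 and EVI2B the best peaks did not overlap in either pair, and each gene had a separate region in its windows with a peak in both GM12878 libraries and none of the 6 others. For CD38 and BLNK the best peaks overlapped in both pairs.

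Scoring start sites apart gave more genes than scoring whole promoters. A region with a peak in both GM12878 libraries and in none of the 6 others overlapped a start-site window of 2377 genes (11.9%), of which 277 were GM12878-only genes and 1541 were open in all 8 libraries through another peak. This count was chosen after the promoter calls had been seen. It took in 19 of the 27 B-cell surface genes, 22 of the 30 leukocyte genes, 14 of the 23 signalling genes and 10 of the 25 B-lineage factors, against 11.9% of all genes. It also took in 12 of the 26 NF-kappaB genes, 5 of the 16 HLA class II genes, 7 of the 20 T and NK genes, 7 of the 24 receptor tyrosine kinase genes, 6 of the 24 adhesion genes and 4 of the 15 myeloid genes. The counts were 3 of 20 fibroblast genes, 2 of 16 kidney genes, and 1 each of the 20 Hippo, 20 erythroid and 15 housekeeping genes.

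The highest GM12878-only peaks were not all at immune genes. ADAM28, a metalloprotease of lymphocytes, ranked first, with folds of 19.3 and 19.1. KHDRBS2, an RNA-binding protein, followed with 18.7 and 19.4, and GSTM1, a glutathione transferase, with 18.3 and 20.7. SMIM6 had 18.6 and 17.0, and MS4A7, a relative of MS4A1, had 15.5 and 17.7. CARD16, an inhibitor of caspase-1, had 14.6 and 15.3, MNDA, a nuclear antigen of myeloid and B cells, had 14.2 and 13.1, and GPR171 had 13.0 and 14.6. The olfactory receptors OR13C2 and OR2AG2 and the keratin-associated KRTAP21-3 also stood among the 20 highest, as did APELA, MYL2, ZNF366, CCL4L2, SMIM9 and BFSP2. GPR141 shared its peak with an overlapping model, ENSG00000290149. GSTM1 and CCL4L2 have near-identical neighbours, so the placement of their reads is uncertain.

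Gene families were counted by symbol, a grouping made after the calls were seen and given without a test. Of 10 leukocyte immunoglobulin-like receptor genes, 4 were GM12878-only (LILRA2, LILRA5, LILRB1 and LILRB4), against 1.4% of all genes, as were 8 of 27 CC chemokines, 3 of 16 membrane-spanning 4A genes, and IFNB1, IFNA2 and IFNA13 among 17 type I interferons. LILRB1, an inhibitory receptor for HLA class I, had 8.89 and 10.2. Of 416 olfactory receptors, 10 were GM12878-only (2.4%) and 366 were open in no library. The class held 1 of 537 zinc finger ZNF and ZFP genes, 2 of 373 solute carriers, 0 of 44 collagens and 0 of 65 protocadherins.

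GM12878-only genes lay next to one another in 23 runs, which held 47 of the 280 genes. The pairs CCL3 with CCL4, CCL3L3 with CCL4L2, LILRB1 with LILRB4, SLAMF1 with CD48, CD1B with CD1E, MS4A7 with MS4A14 and P2RY10 with GPR174 were adjacent protein-coding genes by start site. By chromosome, the share of genes in the class ran from 0.27% on chromosome 10 (2 of 730) to 2.45% on chromosome 17 (29 of 1186).

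GM12878-only promoters were poor in CpG. In the 250 bp on either side of the canonical start, 28 of the 280 (10.0%) were CpG-rich, defined as a GC content of at least 55% and an observed-to-expected CpG ratio of at least 0.6. Over all genes the share was 65.3%, over promoters open in all 8 libraries 85.8%, and over promoters open in none 11.3%. The median CpG ratio was 0.254 in GM12878-only promoters and 0.788 in the reverse class. The peaks were narrower as well, with a median width of 368 bp in replicate 1 against 813 bp at promoters open in all 8. Their summits lay a median of 167 bp from a start, against 68 bp.

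Most reverse promoters were rich in CpG. Of the 265 genes, 200 (75.5%) were CpG-rich. TMEM144, a membrane transporter, had the best rank, with folds of 19.2 and 18.2 in HEK293T, 17.1 and 17.0 in HFF1, and 14.2 and 15.1 in K562, and no peak in GM12878. The zinc finger genes ZFP37, ZNF695, ZNF879 and ZNF558 were among the 20 highest. MGMT, which removes alkyl groups from guanine in DNA, had 14.6 and 13.3 in HEK293T, 11.6 and 12.1 in HFF1, and 10.3 and 8.76 in K562. Others of the 20 included TMC7, TEKT3, ZC3H12B, MIPOL1, ARHGEF10, ARRDC4, CDK20, STARD8, ONECUT2 and BEST3. MBD3L1 shared its peak with ZNF558, and CALHM5 with TRAPPC3L.

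The lists held 7 reverse genes: 2 of 24 in the adhesion list and 1 each in the T and NK, fibroblast, kidney, Hippo and receptor tyrosine kinase lists. With 1.33% of all genes in the class, single genes in lists of this size say nothing about the lists. TJP1, a tight-junction scaffold, had 7.97 and 8.59 in HEK293T, 8.39 and 9.65 in HFF1, and 8.52 and 9.01 in K562. LAMB1, a laminin chain, AMOTL1, a junctional regulator of YAP, and EPHB4, an ephrin receptor, were likewise closed in both GM12878 libraries and open in all 6 others. TWIST1, a mesenchymal factor, SIX2, a kidney progenitor factor, and NCAM1, an adhesion molecule, completed the listed members. EGFR, GJA1 and CDH2 were open in HEK293T and HFF1 and closed in GM12878 and K562. Most adhesion genes did not set the line apart, since 18 of 24 were open in all 8 libraries.

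Reverse genes also lay in runs, with 44 of the 265 in 19 runs. SLC25A21, MIPOL1, FOXA1 and TTC6 formed a run of 4 on chromosome 14. EGFLAM, LIFR and OSMR formed a run of 3 on chromosome 5; LIFR and OSMR encode receptors of the interleukin-6 cytokine family. COL4A5 and COL4A6, which encode collagen IV chains, shared a peak in each of the 6 libraries. The share of reverse genes was 3.17% on chromosome 4 (24 of 757), 2.85% on chromosome 8 (20 of 702) and 2.68% on X (23 of 859).

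Distal GM12878-only regions were the nearest to a start site of 9518 genes (47.7%). Of the 32952 regions, 51.3% lay in introns, 45.6% between genes and 3.14% in exons. The median distance to the nearest start was 23544 bp, against 21313 bp for all distal GM12878 regions, and 20.5% lay over 100 kb away. They covered 13036703 bp at a median width of 348 bp. GM12878-only regions made up 47.6% of the distal GM12878 regions and 14.1% of the 20237 regions in promoter windows.

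The 20 genes with the most GM12878-only distal regions were a mixed group. AUTS2 had 62 of 76 distal GM12878 regions, TMEM121 had 59 of 100, DLGAP1 had 49 of 63, ID2, an inhibitor of E-protein factors, had 48 of 65, and PARD3 had 44 of 64. CXCR4, the CXCL12 receptor of B cells, had 32 of 37, and its promoter was open in all 8 libraries at folds of 4.74 and 4.80 in GM12878. SORCS1, SPRY2, FHIT, TSN, PTPRG, BMP2, EFNA5, MACROD2, RNF144A, SEMA6A, CTNNA2, KHDRBS3, NR2F2 and JARID2 completed the 20, with 31 to 43 regions each. TMEM121 borders the immunoglobulin heavy chain locus.

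The share of distal GM12878 regions without a peak elsewhere, 47.6% over all genes, is given here by list as a description. It was 63.4% for B-cell surface genes (102 of 161 regions), 65.2% for signalling genes (148 of 227), 59.3% for B-lineage factors (258 of 435), 62.8% for HLA class II genes (32 of 51) and 66.8% for leukocyte genes (181 of 271). NF-kappaB genes at 55.4%, T and NK genes at 53.85% and embryonic kidney genes at 50.35% (71 of 141) also lay above the share over all genes. The share was 44.6% for housekeeping genes, 43.2% for Hippo genes, 40.6% for adhesion genes and 38.6% for receptor tyrosine kinase genes. It was 36.0% for fibroblast genes, 34.5% for myeloid genes and 34.1% for erythroid genes. The fibroblast list had 236 distal regions found in HFF1 alone and 32 in GM12878 alone. The lists differ in gene number and in the space around their genes, and the nearest start need not be that of a regulated gene.

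**Figure D4:**
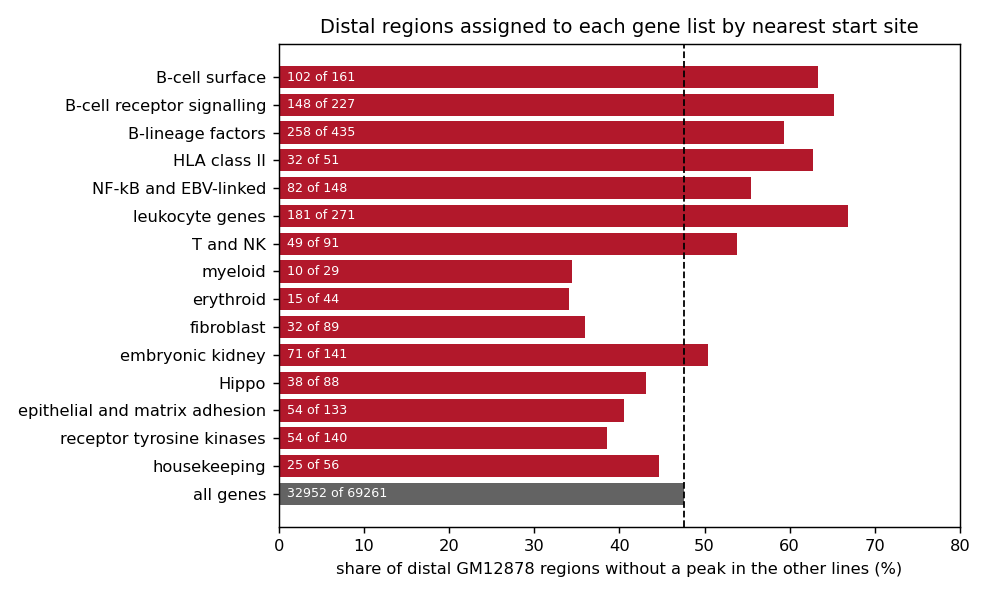
Share (x axis, percent) of distal GM12878 regions nearest to each list's genes that had no peak in the 6 other libraries, with the region counts in the bars; the dashed line is the share over all genes. The B-cell and leukocyte lists lie between 59.3% and 66.8%, right of the line at 47.6%. The NF-kappaB, T and NK, and embryonic kidney lists also lie right of it.

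Promoter class and distal regions were set side by side. The share of genes that were nearest to at least 1 GM12878-only distal region was 57.9% of the GM12878-only genes, 51.5% of genes open in all 8 libraries, 40% of the reverse genes and 28.5% of genes open in no library, against 47.7% of all genes. Both quantities come from the same peak lists, and no test was made. Among the listed genes, INPP5D had 14, CCR6 had 10, CD86 had 9 and MS4A1 had 3, while CD79B had none.

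Motif content was tested on peaks chosen without reference to the other lines. In each library, the distal peaks among its 20000 of lowest p were searched for matches on either strand within 50 bp of the summit, which gave between 9093 and 10704 peaks. The difference of mean shares between the 2 GM12878 and the 6 other libraries was tested over all 28 choices of 2 libraries of 8, two-sided, for 13 motifs. The smallest p this design allows is 0.0357. The choices treat all 8 libraries as exchangeable, although the 2 libraries of a line are not independent. After Benjamini-Hochberg adjustment, 0 of 13 motifs passed 0.05 in the exact permutation test, and 7 reached an unadjusted p of 0.0357. With 7 motifs at the smallest p allowed, their adjusted p in the exact permutation test could not fall under 0.0663. The lack of a pass therefore cannot show that the shares were alike. No other tool was run.

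PU.1-type and IRF-type motifs were more frequent in both GM12878 libraries than in any other. The PU.1 motif stood in 3.26% and 3.58% of GM12878 distal peaks, 0.602% and 0.709% in HEK293T, 1.05% and 1.00% in HFF1, and 1.15% and 1.09% in K562. Both GM12878 libraries lay above all 6 others, by 2.49 percentage points on average (exact permutation p = 0.0357, adjusted p = 0.0663). Over all 12 alternatives the adjusted p of the exact permutation test ran from 0.0663 to 0.265 for each of the 7 motifs; for PU.1 it was 0.116 with the replicate block and highest with 1 GM12878 library left out, where no unadjusted p can fall under 0.143. The ETS-IRF composite, read by PU.1 together with IRF4 or IRF8, stood in 4.57% and 4.44% of GM12878 peaks and in 0.460% to 0.897% of the others, a difference of 3.85 points with the same p and adjusted p. The ISRE-type motif (GAAANNGAAA), read by IRF proteins, stood in 4.13% and 3.96% against 0.479% to 1.21%, a difference of 3.27 points, again at the smallest p.

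Smaller differences reached the same limit. The octamer (ATGCAAAT), read by POU2F2 and POU2F1, stood in 1.499% and 1.528% of GM12878 peaks against 0.390% to 0.748%. The EBF motif (TCCCNNGGGA) stood in 0.803% and 0.764% against 0.216% to 0.346%. RUNX (TGTGGTT) stood in 5.18% and 5.46%, with HFF1 next at 4.597% and 4.438%, and HEK293T and K562 at 2.06% to 2.44%. MEF2 (CTANNNNTAG) stood in 1.43% and 1.54%, with HEK293T at 1.36% and 1.30%. For these 4 motifs both GM12878 libraries lay above the other 6 (exact permutation p = 0.0357, adjusted p = 0.0663), and for MEF2 the lower GM12878 library lay at 1.43% against 1.36% in the higher HEK293T library.

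For the remaining 6 motifs, p was above the smallest value. NF-kappaB (GGGANNTTCC) stood in 1.38% and 1.60% of GM12878 peaks and in 1.58% and 1.42% of HFF1 peaks, so these 2 lines overlapped (exact permutation p = 0.25, adjusted p = 0.325). AP-1 (TGACTCA or TGAGTCA) stood in 10.0% and 9.89% in GM12878 and in 24.6% and 24.1% in HFF1 (exact permutation p = 0.679, adjusted p = 0.802). GATA stood in 3.19% and 3.09%, with K562 at 11.3% and 11.5% (exact permutation p = 1.0, adjusted p = 1.0). TEAD (ACATTCC) was lowest in GM12878, at 0.464% and 0.367% against 1.06% to 3.12% in the others (exact permutation p = 0.0714, adjusted p = 0.103). The E-box CAGGTG stood in 12.4% and 12.2% in GM12878, above all other libraries (exact permutation p = 0.0714, adjusted p = 0.103). HEK293T was close at 11.5% and 11.3%, K562 stood at 10.4% in both libraries, and HFF1 was lowest at 3.95% and 3.92%. CTCF (CCACNAGGNGGCAG) stood in 1.35% and 1.30% of GM12878 peaks (exact permutation p = 0.821, adjusted p = 0.89).

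**Figure D5:**
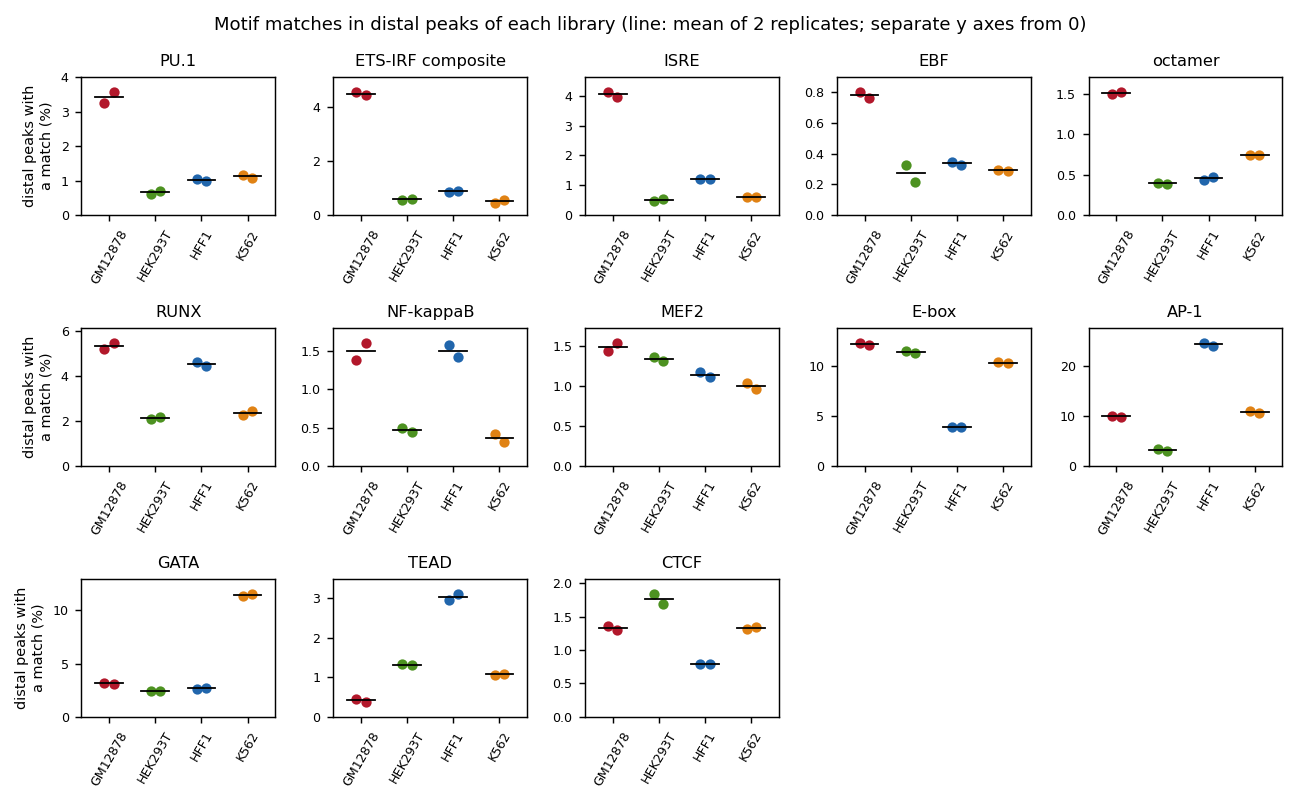
Share of distal peaks with a match (y axis, percent, separate scales from 0) for each of 13 motifs in the 2 libraries of each line (points; black line, mean of 2 replicates). The GM12878 points lie highest for PU.1, ETS-IRF, ISRE, EBF, octamer, RUNX, MEF2 and the E-box, and lowest for TEAD.

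Within GM12878, the regions without a peak elsewhere held more of most searched motifs than the 36309 distal regions shared with another line. The PU.1 share was 4.64% against 1.77%, the ETS-IRF share 5.82% against 1.61%, the ISRE share 6.96% against 2.48% and the octamer share 3.05% against 0.980%. CTCF went the other way, at 0.088% against 1.67%, as did the E-box at 9.84% against 11.95% and TEAD at 0.428% against 0.843%. AP-1 differed little, at 8.78% against 8.21%. In the regions without a peak elsewhere, the ISRE letters in reversed order stood in 2.88%. The reversed GATA letters stood in 5.64%, above the 4.63% of GATA itself. Among promoters, the 275 peaks of GM12878-only genes held PU.1 matches in 6.18% and RUNX matches in 8.0%, against 1.49% and 1.55% of the 12989 promoter peaks of GM12878. These shares are descriptions, since the regions were chosen by the peaks that the motifs lie under.

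Some genes at the edge of the rule had weak peaks, and others had strong ones. The GM12878-only gene with the weakest promoter peak was LIM2, with a −log10 q of 3.11 in 1 of its 2 libraries, followed by MSLNL at 3.73. Just outside, 115 genes were open in both GM12878 libraries and in exactly 1 of the other 6. Among them DRGX was kept out by an HFF1 peak with a −log10 q of 2.51, and WDFY4, a B-cell and dendritic-cell gene with GM12878 folds of 10.8 and 11.1, by an HFF1 peak at 3.08. A further 97 genes were open in 1 GM12878 library and none of the 6 others. The strongest of these single peaks had a −log10 q of 39.2 at ENSG00000284686, 27.1 at SLC6A16 and 21.7 at HYAL4. The median −log10 q over the GM12878-only promoters was 17.95 in replicate 1 and 18.66 in replicate 2. Of the 280 genes, 64 stayed in the class under all 7 alternative settings, and of the 265 reverse genes, 87. CD79B and MS4A1 were among the 64, and CD79A stayed under 6 settings. Among the listed genes, FCRL3 and PRF1 left the GM12878-only class, and TWIST1, SIX2 and NCAM1 the reverse class, when peaks were re-scored at the depth of HEK293T, an alternative chosen after seeing the data. CD3G, CD4, CSF3R and FCRL3 were kept in 4 of the 7 settings, and CD27, PRF1 and S1PR4 in 5.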

How the data were processed

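ATAC-seq peak lists of 8 human libraries (2 each of GM12878, HEK293T, HFF1 and K562) were used as deposited, 1 list per library; the 2 mouse libraries were not analysed here. The members and gene lists were chosen with earlier results of these data known. Per the submitters' processing notes, cutadapt 3.2, Bowtie2 2.4.2, Picard and MACS2 2.2.7.1 were named, without role, with builds that include hg38. The read shift and duplicate handling are not given in the sources used here. The deposited lists give a fold (linear ratio of summit over background) and −log10 p and −log10 q values, all computed by the authors; the lowest −log10 q lay at 2.00 to 2.05. The lists hold no counts.

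Peaks on the autosomes and X were intersected (at least 1 bp) with windows of 1 kb around GENCODE 44 start sites. Distal regions were merged GM12878 peaks outside all windows, assigned to the nearest start from the region centre. Reads per window were recovered from fold and p as a Poisson pileup over background, which solved all peaks except in HEK293T (84.0% and 90.2%). Motif shares were compared by exact permutation, adjusted by Benjamini-Hochberg. Code was tested on simulated data with planted regions. Replicate numbers come from the labels, and nothing in them says that a number marks a shared batch, so the motif test had no block; a replicate block was run as an alternative. Genes named are the 3 markers, the 20 of best rank in each promoter class, the 20 with most distal regions, and up to 8 list members per class in list order; any other gene named was chosen after its values were seen. Python 3.11.15, pandas 2.3.3, scipy 1.17.1, pysam 0.24.0 and samtools 1.23.1 were used. Some items are not reported here.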

Additional observations from a re-analysis of the deposited data

How the results depend on the processing

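The 3 counts were recomputed with peaks of −log10 q of at least 5, the 50000 best peaks of each library, a larger minimum overlap, other windows, the canonical start only, each library left out, and peaks re-scored at the HEK293T depth (chosen after seeing the data). The count of GM12878-only promoters stayed within 1.5 times of 280 in all of them, from 258 to 376. With the 50000 best peaks, the reverse promoters rose from 265 to 423 and the distal regions fell from 32952 to 13518, and only 113 of the 280 GM12878-only genes and 127 of the 265 reverse genes were kept. At the HEK293T depth, 210 and 152 were kept, and the counts were 376, 255 and 26301. Leaving out 1 library gave 287 to 337 GM12878-only promoters, 273 to 334 reverse promoters and 33316 to 41647 distal regions. In the exact permutation test, no motif reached an adjusted p under 0.0663 in any alternative. With the replicate block the number was 0, the smallest p is 0.0625, and the PU.1 difference was 2.49 points; with 1 GM12878 library left out the smallest p is 0.143. Apart from CTCF, whose difference changed sign in 3 of 12 alternatives, each motif kept its sign in all 12. HEK293T depth limits which promoters can be called closed there.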

Other observations

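Start sites of genes outside the protein-coding set held further GM12878-only promoters. Of 214 immunoglobulin gene segments, 14 (6.54%) were open in both GM12878 libraries and in none of the 6 others, all over 2 kb from a protein-coding start, and 0 were in the reverse class. IGHV3-13 had folds of 11.9 and 13.4, IGLV8-61 had 11.628 and 11.996, and IGHV3-53 had 11.4 and 10.3. Segments of these families are near-identical copies, so the placement of their reads is uncertain. Of 18756 lncRNA genes, 536 (2.86%) were GM12878-only, and 142 (0.757%) were in the reverse class. PRDM4-AS1 had 20.9 and 21.2, and LINC01857 had 11.2 and 11.7.

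The immunoglobulin heavy chain locus (chr14:105583731-106879812) held 100 and 99 peaks in the GM12878 libraries. It held 45 and 47 in HEK293T, 45 and 31 in K562, and 0 and 2 in HFF1, although the HFF1 lists were the longest. Of 91 distal regions in both GM12878 libraries there, 55 had no peak in the 6 other libraries.

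Another 3 GM12878-only genes were picked after their values were seen, with no list behind them. The nucleic acid receptor TLR7 had folds of 5.77 and 5.98, TLR9 had 8.63 and 8.32, and TASL, an adaptor in TLR signalling, had 11.41 and 11.35.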
